A study of Mus musculus with 11 samples.

Results

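The genes compared here are those of the tibialis anterior, the mostly fast-fibre muscle at the front of the shin, of aged C57BL/6 mice given serum of young mice from which extracellular vesicles (EVs) had been depleted, set against aged mice given saline. Members were every gene with at least 1 CPM (counts scaled to 1000000 per library) in at least 3 of the 7 libraries of these 2 groups, which kept 12956 of the 18269 genes in the deposited table. The 7 libraries were 3 after EV-depleted young serum (replicates 2, 3 and 4) and 4 after saline (replicates 2, 3, 4 and 6), of 11 libraries in the series. All animals were 21 to 24 months old, and the only labelled difference between the groups was the injection. The labels name an injury model among their protocols, and no allele, transgene or sex. They do not state when or how the muscle was injured or the RNA was taken, how the EVs were removed, or whether the libraries came from separate animals, so the tests measure the spread between these libraries, which may in part be technical.

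EVs are membrane-bound particles that cells release into body fluids and that carry proteins and RNA, and serum freed of them still holds its soluble proteins, hormones and metabolites. Saline carries neither, so this comparison shows serum without vesicles against no serum at all. Aged muscle is known for slower regeneration, more connective tissue and fat between its fibres and a shift in fibre types, and its fibres answer load or damage through proteins of the Z-disc, which anchors the thin filaments, and of the junctions that pass force to the tendon.

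The spacing of the smallest CPM values showed that 1 CPM stood for 38.5 to 42.3 reads, depending on the library. A pair of saline libraries stood apart from the rest and touches many results below. Saline replicate 4 had a summed adipocyte marker level of 14600 CPM against 2280 to 2924 CPM in the other 6 libraries, and saline replicate 6 a summed slow fibre level of 5810 CPM against 305 to 2443 CPM. They took the extremes of the first 2 principal components, which held 40.5% and 37.3% of the variance. The median SD within a group was 0.30 on the log2 scale in saline and 0.22 after EV-depleted serum. Muscle identity was clear in all 7 libraries: the summed level of 17 fast fibre genes ran from 175015 to 220937 CPM.

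No gene passed an adjusted p of 0.05 between EV-depleted serum and saline, by limma on log2(CPM + 1) with Benjamini-Hochberg adjustment over all 12956 genes (0% called; smallest adjusted p 0.655). At an unadjusted p under 0.05 there were 787 genes (6.07%), 443 higher (3.42%) and 344 lower (2.66%) after EV-depleted serum. The groups did not overlap, meaning that every library of one lay beyond every library of the other, for 969 genes (7.48%), 441 higher (3.40%) and 528 lower (4.08%). These shares are the background against which every count of members below is read. All differences are therefore given as values, higher or lower, with the standard error (SE) of the log2 difference, EV-depleted minus saline. Across all genes the median log2 difference was -0.0034, with 6419 higher and 6537 lower means. Among genes without overlap, 17 were at least 2-fold higher and 58 at least 2-fold lower, and the median difference was 0.42 in the higher and -0.50 in the lower set. With the deposited TPM values, which divide CPM by the genomic span of a gene and scale each library anew, the unadjusted calls were 153 higher and 673 lower, so the share of higher calls went from 56.3% to 18.5%. That share was 66.0% without saline replicate 4 and 68.8% when EV-depleted replicate 3 was left out. Without saline replicate 6, 5 genes passed the adjusted threshold (smallest adjusted p 0.0128), and they are named below.

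Levels below are in CPM, in the order of replicates 2, 3, 4 and 6 for saline and 2, 3 and 4 for EV-depleted serum, and means carry the SD over these 4 and 3 libraries. Transcripts of the Z-disc and of the myotendinous junction made up 4 of the 12 higher genes of smallest p. Igfn1, a Z-disc protein built of immunoglobulin and fibronectin type III domains, had the smallest unadjusted p of all genes (0.000134). Promoters of 4 of these genes are shown first, since the genes moved in the same direction. The sequences are RefSeq windows of build GRCm38.p6, from 250 bases before to 50 bases after the annotated start, 5′ to 3′ on the gene's strand. Capitals mark each E-box (CANNTG, the letters that myogenic factors such as MyoD bind) and each MCAT motif (CATTCC, or GGAATG on the other strand, the letters that TEAD factors bind). The windows lie at chr1:136006293-136006592 on the minus strand for Igfn1, chr19:56389989-56390288 minus for Nrap, chr19:36119795-36120094 minus for Ankrd1 and chr6:29433006-29433305 plus for Flnc, and the Ankrd1 window starts from a transcript start 255 bases from the deposited one.
Igfn1: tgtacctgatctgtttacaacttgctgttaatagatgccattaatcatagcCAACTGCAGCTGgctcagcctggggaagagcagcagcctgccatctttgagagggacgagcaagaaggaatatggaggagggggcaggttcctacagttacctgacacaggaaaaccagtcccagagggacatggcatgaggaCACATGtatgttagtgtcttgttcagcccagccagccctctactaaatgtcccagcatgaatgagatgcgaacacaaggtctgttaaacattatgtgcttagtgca
Nrap: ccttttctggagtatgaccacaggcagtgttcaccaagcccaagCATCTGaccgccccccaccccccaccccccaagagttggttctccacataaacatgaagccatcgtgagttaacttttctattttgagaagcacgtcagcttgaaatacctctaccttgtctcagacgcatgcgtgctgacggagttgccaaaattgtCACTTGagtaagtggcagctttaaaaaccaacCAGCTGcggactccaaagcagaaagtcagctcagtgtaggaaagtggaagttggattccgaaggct
Ankrd1: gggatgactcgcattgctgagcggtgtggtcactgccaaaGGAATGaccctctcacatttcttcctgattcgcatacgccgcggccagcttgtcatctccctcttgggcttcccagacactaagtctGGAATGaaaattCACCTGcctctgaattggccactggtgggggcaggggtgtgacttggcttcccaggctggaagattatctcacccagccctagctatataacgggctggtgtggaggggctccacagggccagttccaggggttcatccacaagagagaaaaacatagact
Flnc: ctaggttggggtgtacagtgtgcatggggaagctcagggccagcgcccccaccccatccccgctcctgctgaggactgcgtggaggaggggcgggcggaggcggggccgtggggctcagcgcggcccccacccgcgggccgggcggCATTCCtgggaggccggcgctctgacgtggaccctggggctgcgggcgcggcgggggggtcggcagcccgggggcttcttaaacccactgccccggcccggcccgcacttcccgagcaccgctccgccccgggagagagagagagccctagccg

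Igfn1 held 3 E-boxes, at -199, -193 and -56, counted in bases from the first transcribed base at 0. Nrap held 3 at -206, -48 and -16, while Ankrd1 held 1 E-box at -111 with MCAT motifs at -210 and -123, and Flnc 1 MCAT motif at -104. Of the 24 genes in the list of strain and junction genes, 20 had a window in the RefSeq table. An E-box on either strand was found in at least 1 window of 15 of them and an MCAT motif in that of 4. Over all 32851 single windows the shares were 72.3% and 14.7%. A gene with several windows has more chances to hold a motif, so the measures are not quite alike. E-boxes were not much more frequent in the list than elsewhere. A match is a run of letters and not a shown binding site.

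Igfn1 stood at 15.9, 27.4, 24.1 and 7.94 CPM in the saline libraries and at 162, 107 and 82.1 CPM after EV-depleted serum. The lowest EV-depleted library lay far above the highest saline library. The means were 18.8 ± 8.73 CPM (SD, n = 4) and 117 ± 41.1 CPM (SD, n = 3), a log2 difference of 2.65 ± 0.40 (SE), which ran from 2.31 to 2.87 when each library was left out in turn. For comparison, the 4 libraries given whole young serum, which share the saline controls, held 31.0 to 50.05 CPM of Igfn1. The gene lies at chr1:135953578-136006342 on the minus strand.

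Nrap, a scaffold that links thin filaments to the membrane during myofibril assembly, stood at 1062, 995, 796 and 958 CPM in saline and at 1614, 1650 and 1946 CPM after EV-depleted serum. The groups were well apart, at 953 ± 113 and 1737 ± 182 CPM (SD), with a log2 difference of 0.87 ± 0.15 (SE). Whole young serum gave 1545 to 1762 CPM, much the same range as EV-depleted serum. Ankrd1, an ankyrin repeat protein of the titin N2A region that muscle makes under stretch or damage, stood at 10.8, 7.90, 3.88 and 9.20 CPM in saline against 32.2, 16.8 and 25.8 CPM. It was higher in each EV-depleted library than in any saline library (log2 difference 1.56 ± 0.33). Flnc, the actin crosslinker filamin C of the Z-disc, stood at 666, 573, 448 and 435 CPM in saline and at 1009, 890 and 1636 CPM (1.12 ± 0.24). EV-depleted replicate 4 held the highest Flnc level and replicate 3 the lowest of its group.

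Xirp1, a Xin repeat protein that binds actin in remodelling fibres, stood at 110, 96.7, 83.4 and 92.8 CPM in saline and at 198, 147 and 221 CPM after EV-depleted serum (0.96 ± 0.17). Col22a1, the collagen of the myotendinous junction, was lower in level but also without overlap, from 8.88 to 13.6 CPM in saline and from 18.8 to 24.95 CPM after EV-depleted serum (0.94 ± 0.19). Ankrd23, a relative of Ankrd1, went from 1349 to 2403 CPM in saline to 2603 to 3436 CPM (0.76 ± 0.21). The members that completed the set without overlap were Kcnc1, a potassium channel subunit (0.55 ± 0.17), and Synpo2, a Z-disc actin binder (0.41 ± 0.14).

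All 24 measured members of the strain and junction list had higher means after EV-depleted serum, 9 of them without overlap, against 3.40% over all genes. This list, like the others here, was chosen with earlier results of these data known, so its counts are a description and not a test. The list's median log2 difference was 0.49, and 0.45 to 0.61 when single libraries were left out. Some members moved little or overlapped. Bag3, the chaperone partner that clears damaged filamin, was at 132 to 161 CPM in saline and 135 to 171 CPM after EV-depleted serum (0.10 ± 0.14). Fhl1, a LIM domain protein of the sarcomere, stood at 418 to 846 CPM and 803 to 1599 CPM (0.92 ± 0.29). Ankrd2 and Csrp3, stretch-linked genes that slow fibres also make, had their highest saline value in replicate 6, at 177 and 70.0 CPM, and overlapped.

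**Figure D1:**
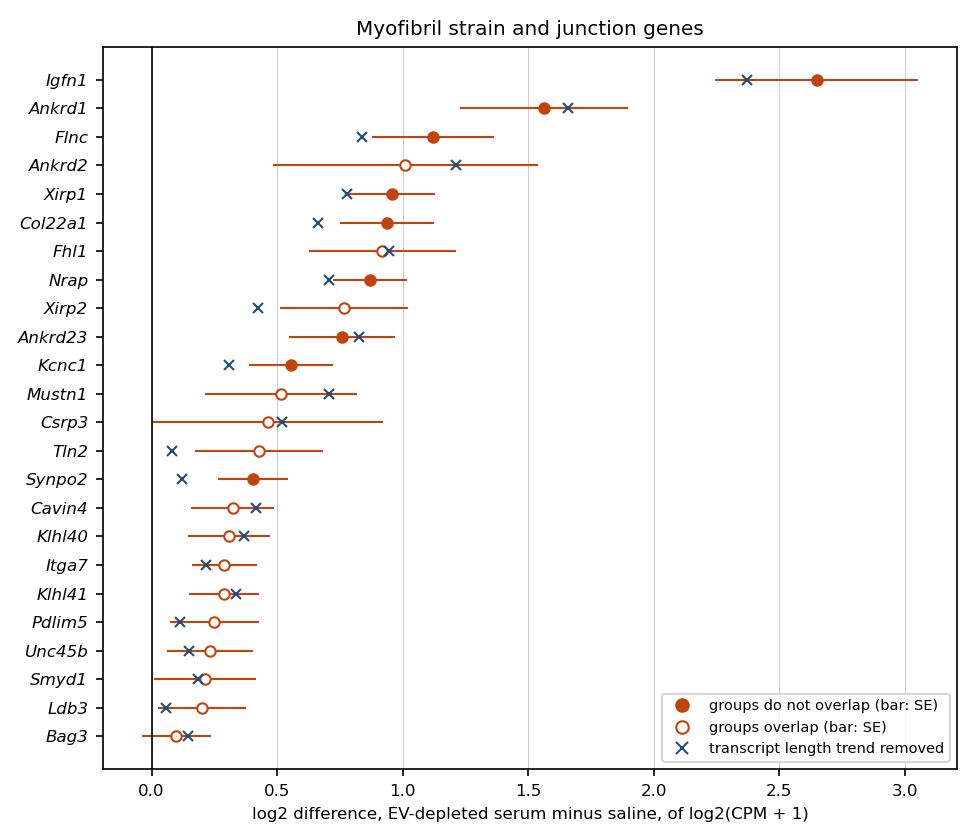
Log2 difference, EV-depleted serum minus saline, of each strain and junction gene, with a bar for the SE. Filled points are genes whose groups do not overlap and open points genes whose groups overlap. Crosses give the difference with the transcript length trend removed. Igfn1 is at 2.65 without overlap, and Bag3 is at 0.10 with overlap.

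Many strain genes have long transcripts, and the difference between the groups moved with transcript length across all genes. Among the 12743 genes with a known length, split into 5 groups of nearly equal size by their longest transcript, the median log2 difference went from -0.23 in the shortest group (66 to 1769 bases) through -0.09, -0.0013 and 0.09 to 0.21 in the longest (5226 to 123179 bases). Genes lower without overlap made up 8.50% of the shortest group and 0.275% of the longest. The steepest slopes were in 2 libraries: the median deviation from the mean of all libraries ran from 0.26 to -0.46 over the length groups in saline replicate 6 and from -0.20 to 0.47 in EV-depleted replicate 4. The part that this trend had in the results was not tested beyond removing it. With each library's length trend removed, the median of the strain list was 0.42 in place of 0.49 and 8 members were higher without overlap, against 4.37% of all genes then. Igfn1 was then at 2.37, Nrap at 0.70, Flnc at 0.84 and Ankrd1 at 1.66, whereas Kcnc1 was at 0.31 and Synpo2 at 0.12, both with overlap. Genes described below without overlap that overlapped once the trend was removed were Dhrs7c, H2-Q4, C1qa, Tpsb2, Mgp, Fabp4, Gapdh, Pgam2, Ldha, Rpl22l1, Dnajb4, Enah, Sod2, Fgf1 and Cdkn1c, beside those named in their own paragraphs.

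**Figure D2:**
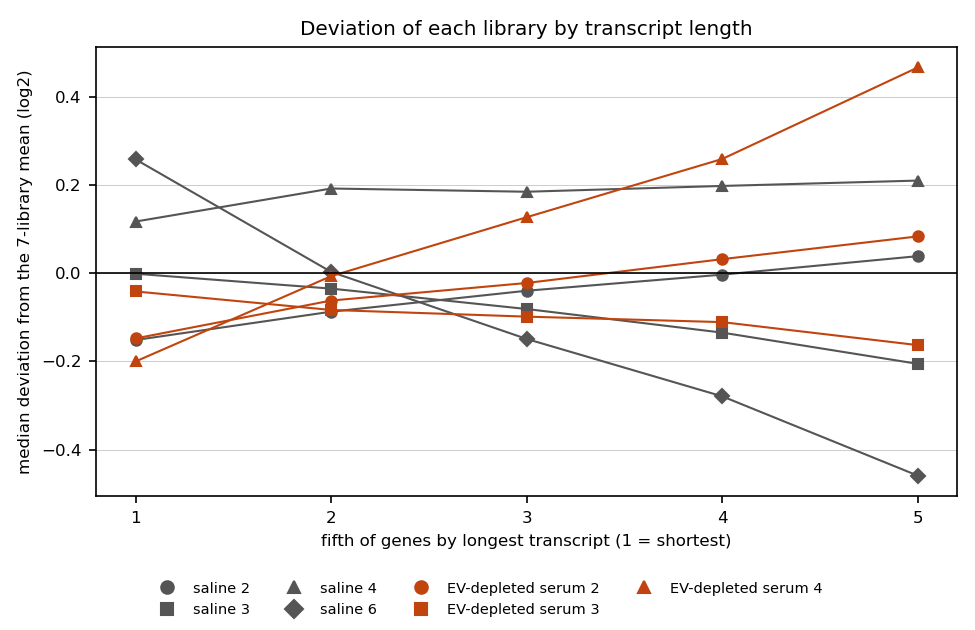
Median log2 deviation of each library from the mean of all 7, in 5 groups of genes by longest transcript length. From the shortest to the longest group, saline replicate 6 goes from 0.26 to -0.46 and EV-depleted replicate 4 from -0.20 to 0.47, in opposite ways.

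The other genes among the 12 with the smallest p in the higher direction were enzymes, transporters and signalling genes of several kinds. None passed the adjusted test, all had groups without overlap by the way they were chosen, and their adjusted p-values and those of the 12 lower genes lay at 0.655 or above. Otud1, a deubiquitinase of the ovarian tumour family, stood at 14.5, 9.995, 11.8 and 16.8 CPM in saline and at 60.3, 51.0 and 29.1 CPM after EV-depleted serum. Its means were 13.3 ± 3.004 and 46.8 ± 16.1 CPM (SD), a log2 difference of 1.71 ± 0.27, and whole young serum gave 17.9 to 23.5 CPM. The wider deubiquitinase list was 23 of 30 higher with 2 without overlap, at a median of 0.26 that was 0.06 with the length trend removed and 0.13 without EV-depleted replicate 4.

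Padi2, which converts arginine in proteins to citrulline, stood at 127, 113, 104 and 134 CPM in saline and at 284, 217 and 215 CPM (0.99 ± 0.15). Ptpn3, a tyrosine phosphatase of the cell cortex, went from 43.3 to 62.9 CPM in saline to 92.9 to 115 CPM (0.99 ± 0.16). Slc41a1, a magnesium transporter, went from 33.6 to 49.3 CPM to 70.4 to 80.9 CPM (0.93 ± 0.16). In each every EV-depleted library was well above saline, with Padi2 highest in EV-depleted replicate 2. Prkg1, the kinase that cyclic GMP activates, had 8.45 to 12.7 CPM in saline and 18.7 to 29.1 CPM after EV-depleted serum (1.09 ± 0.21). Evc, a ciliary protein of hedgehog signalling, had 9.53 to 15.1 CPM and 22.8 to 25.5 CPM (0.94 ± 0.19). Uaca, an ankyrin repeat protein linked to apoptosis, differed least of the 12, from 165 to 192 CPM in saline to 239 to 302 CPM (0.63 ± 0.13).

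**Figure D3:**
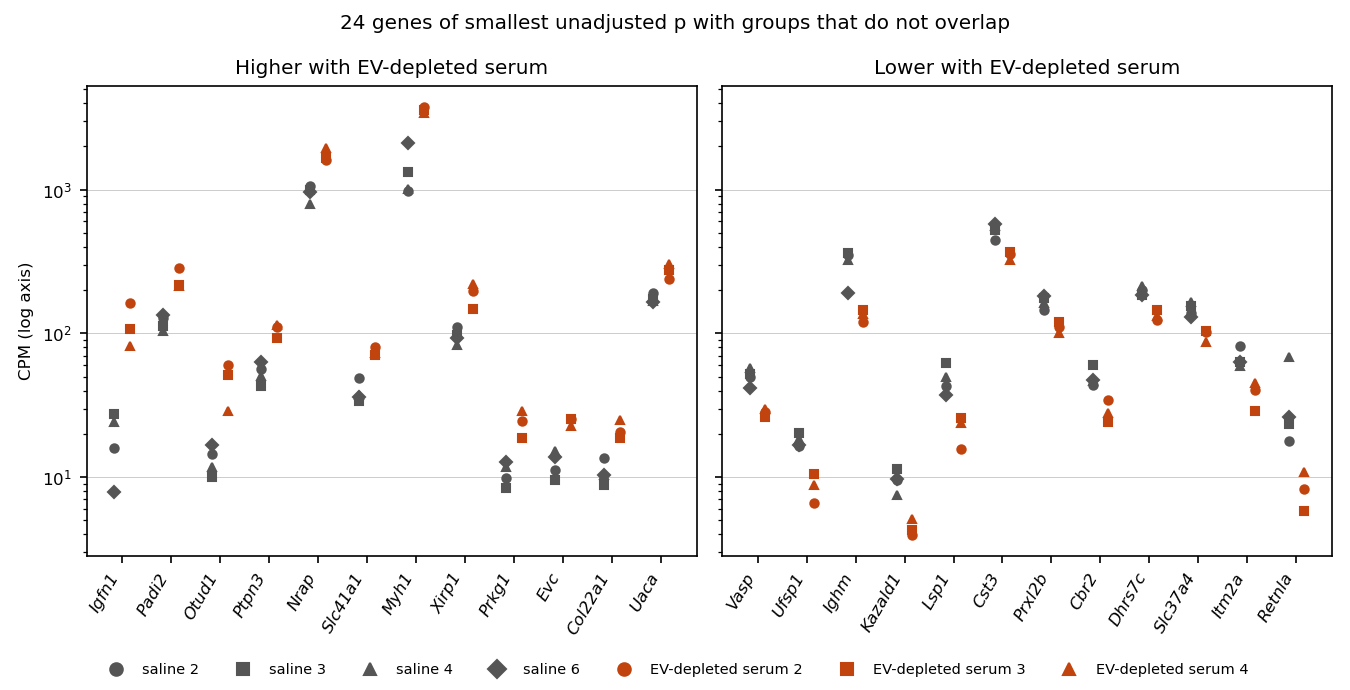
CPM in each of the 7 libraries, on a log axis, for the 12 higher and the 12 lower genes with the smallest unadjusted p among genes whose groups do not overlap. Igfn1 is the gene with the largest difference, and the groups are separate in each gene because that is how the genes were chosen.

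Fibre type genes of the slow and intermediate kinds were higher after EV-depleted serum than in 3 of the 4 saline libraries, and saline replicate 6 broke the pattern. Fibre types are set by the myosin heavy chain they carry, from slow (Myh7) through IIa (Myh2) and IIx (Myh1) to IIb (Myh4). Myh7 stood at 48.8, 43.2, 67.8 and 944 CPM in saline and at 340, 563 and 512 CPM after EV-depleted serum. Every EV-depleted library was above saline replicates 2, 3 and 4 and below saline replicate 6. The log2 difference was 2.08 ± 0.97 (limma, unadjusted p 0.061, adjusted p 0.675). Without saline replicate 6 it was 3.12 with an adjusted p of 0.0128. That library was the saline library highest in Myh7, so leaving it out widens the difference, and this p is no independent test. Myh2 stood at 1165, 448, 408 and 2119 CPM and at 3157, 2737 and 2024 CPM (1.66 ± 0.54), so the groups overlapped at a single pair of libraries.

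Myh1 was the one myosin without overlap, at 985, 1317, 1016 and 2103 CPM in saline and 3730, 3597 and 3434 CPM after EV-depleted serum. Its means were 1355 ± 520 and 3587 ± 148 CPM (SD), a log2 difference of 1.47 ± 0.26, and with the length trend removed the difference was 1.29 and the groups overlapped. Without saline replicate 6, its highest saline library, the log2 difference as deposited was 1.71, with a limma adjusted p of 0.0128. Leaving out that library widens the difference, so this p is no independent test. Whole young serum spread from 1094 to 3662 CPM. Myh4, by far the most abundant myosin, stood at 54805, 49620, 45243 and 29701 CPM and at 49590, 42328 and 53896 CPM. It did not separate the groups (0.15 ± 0.25), and its difference was negative (-0.04) without saline replicate 6 or with the length trend removed.

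Of the 14 slow fibre genes, 12 had higher means and none was without overlap, at a median of 1.16. Leaving out saline replicate 6 put the median at 1.98 with 12 of the 14 higher without overlap, in a setting where 4.90% of all genes were. Tnnt1 and Tnni1, the slow troponins, held 467 and 441 CPM in saline replicate 6, 9.18 to 25.7 CPM in the other saline libraries and 52.4 to 203 CPM after EV-depleted serum. With all libraries their unadjusted limma p was 0.15 for Tnnt1 and 0.37 for Tnni1. Without that library each had an adjusted p of 0.0128. It was the library highest in slow fibre genes, so these adjusted p-values and the count without it are no independent test. Atp2a2, the slow calcium pump, stood at 55.6 to 598 CPM and 333 to 440 CPM (1.35 ± 0.68). The 2 members with lower means were Myl6b and Sln, a light chain and a calcium pump inhibitor (-0.10 ± 0.31 and -0.13 ± 0.52), and both were positive without saline replicate 6.

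On the fast side, Pvalb, the calcium buffer parvalbumin, stood at 12460, 16601, 11780 and 20475 CPM in saline and at 7345, 10088 and 7164 CPM after EV-depleted serum (-0.88 ± 0.24). Casq1, the fast calsequestrin that stores calcium, stood at 3494, 3791, 3360 and 3105 CPM against 2400, 2753 and 2388 CPM (-0.45 ± 0.14). Neither overlapped. Over 17 fast fibre genes, 6 were higher and 11 lower, with a median of -0.14 that ran from -0.05 without saline replicate 3 to -0.21 without saline replicate 6 and was -0.05 with the length trend removed. Among 16 giant scaffold and M-band genes, 15 had higher means, and Mybpc1 and Cmya5 were without overlap (0.65 ± 0.24 and 0.56 ± 0.23). This list's median was 0.31, 0.14 without saline replicate 6, and 0.19 with no member without overlap once the length trend was removed.

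Glycolytic enzymes had lower transcript levels after EV-depleted serum. Of 19 genes, 17 had lower means, 6 of them without overlap against 4.08% over all genes, at a median of -0.24. Pgk1, which makes the first ATP of glycolysis, stood at 625, 704, 579 and 618 CPM in saline and at 466, 472 and 375 CPM (-0.53 ± 0.14). Gapdh, the step before it, stood at 1329, 1902, 1419 and 1532 CPM against 1157, 1209 and 992 CPM (-0.46 ± 0.16). Eno1 (-0.61 ± 0.22), Pgam2 (-0.42 ± 0.16) and Ldha (-0.35 ± 0.13) did the same, and EV-depleted replicate 4 had the lowest level of all 5 of these genes. Ldhb and Hk2 had higher means (1.07 ± 0.54 and 0.22 ± 0.21), and Ldhb, an isoform of slow fibres, was highest in saline replicate 6 at 340 CPM. With the length trend removed the list's median was -0.16 and 2 members had no overlap.

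Genes of mitochondrial biogenesis and fuel oxidation leaned the other way. Of 22 biogenesis genes 21 had higher means (median 0.15), 3 without overlap. With the length trend removed 15 were higher and 7 lower (median 0.17), and none was without overlap. Perm1, a muscle regulator of PGC-1 and ERR target genes, went from 150 to 180 CPM in saline to 211 to 268 CPM (0.48 ± 0.14), and Mfn1, which fuses mitochondria, from 144 to 165 CPM to 194 to 202 CPM (0.37 ± 0.12). Of 25 fatty acid oxidation genes 19 were higher (median 0.17), with Acadm, the medium-chain dehydrogenase, at 243 to 338 CPM against 372 to 387 CPM (0.41 ± 0.14) and Etfa, an electron carrier subunit, at 118 to 164 CPM against 176 to 182 CPM (0.29 ± 0.14). Without saline replicate 6, 12 of the 25 were higher without overlap, against 4.90% of all genes in that setting. In the citric acid cycle 20 of 23 were higher (median 0.15) and none was without overlap. Idh2, one of its dehydrogenases, stood at 131 to 520 CPM in saline against 350 to 454 CPM (0.87 ± 0.43).

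The short transcripts of the respiratory chain and the ribosome had lower means with hardly a gene free of overlap. For complex I, 33 of 37 genes had lower means and none was without overlap, and the median of -0.22 was -0.04 with the length trend removed and -0.01 without saline replicate 6. Complexes II to V had 32 of 40 lower, and their median of -0.21 was -0.04 with the length trend removed and 0.07 without saline replicate 6. Of 86 cytosolic ribosomal protein genes 85 were lower, but only Rpl22l1 was without overlap (-0.53 ± 0.19). Their median of -0.51 was -0.32 with the trend removed and -0.26 without saline replicate 6.

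**Figure D4:**
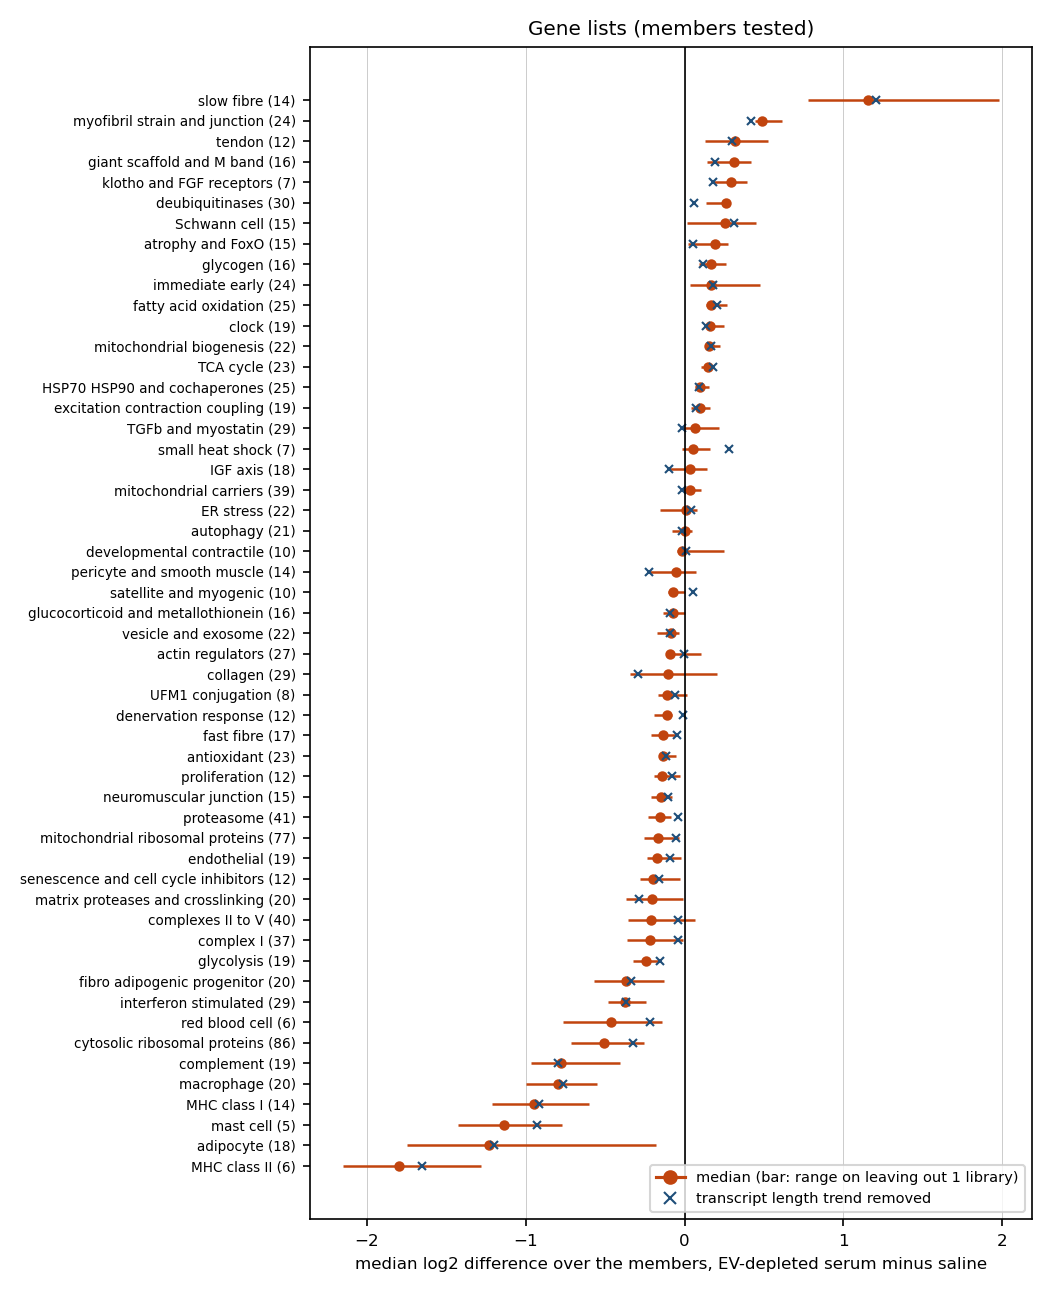
Median log2 difference (EV-depleted minus saline) of gene lists. Points are the medians as deposited, bars their range when each library was left out in turn, and crosses the medians with the transcript length trend removed. MHC class II is at -1.80 and slow fibre genes are at 1.16, while the ribosomal and complex I medians move toward 0 with the trend removed.

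Antigen presentation and macrophage transcripts were lower after EV-depleted serum. All 6 measured MHC class II genes were lower without overlap, against 4.08% over all genes, at a median log2 difference of -1.80. Class II molecules present peptides to helper T cells on macrophages, dendritic cells and B cells, and their genes share a promoter module of which the CCAAT-like Y box is one element. Windows of 3 of them follow, with CCAAT on either strand in capitals, at chr17:34287774-34288073 minus for H2-Aa, chr17:34305617-34305916 plus for H2-Eb1 and chr17:34152941-34153240 plus for H2-DMb1, whose transcript start lies 119 bases from the deposited one.
H2-Aa: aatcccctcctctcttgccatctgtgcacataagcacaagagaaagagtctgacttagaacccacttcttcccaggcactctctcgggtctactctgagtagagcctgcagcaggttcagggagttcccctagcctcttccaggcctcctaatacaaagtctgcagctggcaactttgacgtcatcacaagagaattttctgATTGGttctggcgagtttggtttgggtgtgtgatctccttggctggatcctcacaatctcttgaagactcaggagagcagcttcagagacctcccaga
H2-Eb1: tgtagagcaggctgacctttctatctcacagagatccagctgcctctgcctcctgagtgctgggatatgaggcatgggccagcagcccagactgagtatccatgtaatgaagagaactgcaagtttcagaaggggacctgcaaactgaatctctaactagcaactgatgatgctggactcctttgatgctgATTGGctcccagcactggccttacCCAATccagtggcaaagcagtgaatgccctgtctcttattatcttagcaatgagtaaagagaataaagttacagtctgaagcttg
H2-DMb1: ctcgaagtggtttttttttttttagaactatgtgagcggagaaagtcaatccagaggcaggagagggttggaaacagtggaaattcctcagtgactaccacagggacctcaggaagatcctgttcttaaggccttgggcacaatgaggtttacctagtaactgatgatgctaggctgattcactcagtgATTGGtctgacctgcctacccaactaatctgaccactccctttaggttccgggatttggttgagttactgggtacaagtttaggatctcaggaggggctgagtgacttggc

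CCAAT began at -48 in H2-Aa, at -59 and -35 in H2-Eb1 and at -61 in H2-DMb1. All 4 class II genes with a window held it in at least 1 window, against 37.4% of all single windows. This search was added after the values were known, and counts of genes and of windows are not quite alike. In saline all 6 class II genes were highest in replicate 4, next in replicate 6, and lowest in replicate 2. H2-Eb1, a beta chain, stood at 22.3, 29.8, 124 and 49.7 CPM in saline and at 12.8, 14.4 and 11.2 CPM after EV-depleted serum (-1.75 ± 0.50). H2-Ab1 stood at 26.7, 36.7, 179 and 82.3 CPM against 15.8, 16.4 and 13.6 CPM (-1.96 ± 0.57), and Cd74, the invariant chain that escorts class II, at 61.8, 87.8, 403 and 152 CPM against 38.7, 42.3 and 29.2 CPM (-1.87 ± 0.55). The EV-depleted libraries were close together below all saline libraries in these 3 genes. H2-Aa, H2-DMa and H2-DMb1 differed by -1.86 ± 0.58, -1.09 ± 0.49 and -1.03 ± 0.35. Without saline replicate 4 the median was -1.28 and all 6 were still without overlap (4.55% of all genes were lower without overlap in that setting), as they were with the length trend removed (median -1.66; 4.65% of genes).

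Class I genes, which present peptides on most cells, were lower in 14 of 14 cases, 5 without overlap, at a median of -0.95. H2-D1 stood at 137, 153, 590 and 227 CPM in saline and 116, 128 and 89.2 CPM after EV-depleted serum (-1.06 ± 0.46), and B2m, the shared light chain, at 88.5, 96.6, 284 and 128 CPM against 72.8, 86.8 and 74.7 CPM (-0.76 ± 0.37). The gap between the lowest saline and the highest EV-depleted library was small in both. H2-T23, H2-Q4 and H2-K1 were the others without overlap. H2-Q6 and H2-Q7 overlapped (-1.20 ± 0.43 and -1.16 ± 0.42), and since class I genes are near-identical copies, how reads were shared among them is uncertain. Without saline replicate 4 the list's median was -0.60, and without saline replicates 4 and 6 it was -0.28.

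Of 20 macrophage genes 18 were lower, 12 without overlap, at a median of -0.80. Csf1r, the receptor for macrophage colony-stimulating factor, stood at 16.4, 22.5, 33.8 and 20.3 CPM in saline and at 13.02, 9.52 and 14.3 CPM (-0.84 ± 0.25). Lyz2, the lysozyme of myeloid cells, stood at 46.9, 52.8, 99.4 and 122 CPM against 39.0, 26.2 and 45.2 CPM (-1.02 ± 0.35). All EV-depleted libraries lay below the lowest saline library in both, replicate 3 the farthest. C1qb, which macrophages make for the complement system, differed by -1.07 ± 0.35, Tyrobp, an adaptor of myeloid receptors, by -1.10 ± 0.37 and Adgre1, the gene of F4/80, by -1.08 ± 0.60. Spp1, osteopontin, and Mertk, a receptor for dying cells, had higher means (0.63 ± 0.32 and 0.12 ± 0.28) and overlapped. Without saline replicate 4 the median was -0.55 and 12 genes were still without overlap. In a bulk muscle, fewer cells of a type and less RNA per cell cannot be told apart.

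Interferon-stimulated genes were lower in 28 of 29 cases, 6 without overlap, at a median of -0.37. The median was -0.25 without saline replicate 4, whose summed level of these genes was 629 CPM against 181 to 313 CPM in the other saline libraries, and -0.16 without saline replicates 4 and 6. Irf7, a main regulator of interferon genes, stood at 6.17, 5.46, 10.8 and 4.93 CPM in saline and at 2.60, 2.54 and 2.90 CPM after EV-depleted serum (-1.04 ± 0.26). It separated the groups clearly at a low level. Bst2, tetherin, differed by -0.73 ± 0.25 and Usp18, which damps interferon signalling, by -0.59 ± 0.20, with Oasl2 and Irf1 at -0.57 ± 0.24 and -0.66 ± 0.28. Ifih1 was the exception (0.03 ± 0.26). Of 19 complement genes 17 were lower, 5 without overlap, among them C1qa, C1qb, C1qc and the receptors C3ar1 and C5ar1 (-1.02, -1.07, -0.99, -0.91 and -0.73). The complement median of -0.78 was -0.41 without saline replicate 4, whose Cfd, an adipocyte product, was 2811 CPM against 32.1 to 175 CPM in the others.

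Of the 4 antibody and plasma cell genes above the filter 3 had lower means, 2 of them without overlap, against 4.08% over all genes. Ighm, the heavy chain of IgM, stood at 350, 363, 326 and 189 CPM in saline and at 120, 145 and 137 CPM after EV-depleted serum (-1.15 ± 0.23). Without saline replicate 6, its lowest saline library, the difference was -1.36 with a limma adjusted p of 0.0128. Leaving out that library widens the difference, so this p is no independent test. Whole young serum gave 129 to 183 CPM of Ighm. Igkc, the kappa light chain, varied far more, at 3.88, 9.32, 168 and 37.7 CPM in saline and 1.55, 0.960 and 3.05 CPM (-3.13 ± 1.05), while Ighg2c, an IgG heavy chain, did not separate the groups (0.08 ± 0.39). Jchain, the joining chain of antibodies, had a lower mean and overlapped (-1.65 ± 0.66). The heavy chains Ighd, Ighg1, Ighg2b and Igha and the B cell genes Cd79a, Cd79b and Ms4a1 were below the filter on low values. Of the 5 mast cell genes all were lower (median -1.14) and Tpsb2, a tryptase, was without overlap at 4.29 to 18.7 CPM against 1.61 to 4.27 CPM (-1.30 ± 0.45).

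The summed marker levels put these genes beside each other. Summed macrophage markers were 199.9, 245, 483 and 330 CPM in saline and 178, 123 and 192 CPM after EV-depleted serum. Summed T and NK cell markers were 4.93, 4.99, 58.05 and 21.0 CPM against 4.45, 2.49 and 5.20 CPM, with 10 of the 14 genes below the filter. Skin and hair markers, 2 of 12 above the filter, summed to 3.76, 6.5, 142 and 61.2 CPM against 4.57, 4.93 and 5.13 CPM. Saline replicates 4 and 6, the libraries highest in skin and T cell markers, were thus also the highest in class II genes, and replicates 2 and 3 were closer to EV-depleted serum. Without both of these libraries the class II median was -0.97 and the macrophage median -0.44. In that setting the class I, mast cell and complement medians were -0.28, -0.42 and -0.38. The part that skin, fat or lymphoid tissue in the sample had in the immune differences was not tested.

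**Figure D5:**
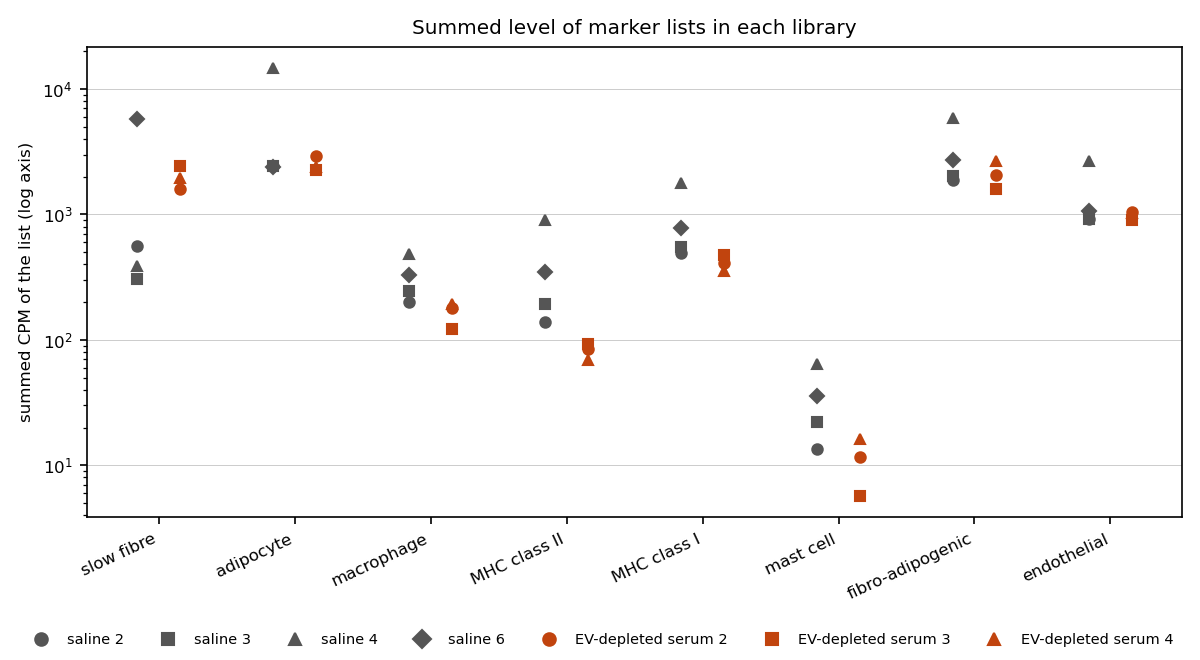
Summed CPM of cell type marker lists in each of the 7 libraries, on a log axis. Class II sums run from 138 to 900 CPM in saline and from 69.3 to 92.6 CPM after EV-depleted serum. Saline replicate 4 is the highest library for adipocyte and class II markers.

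Most adipocyte and fibro-adipogenic progenitor genes had lower means after EV-depleted serum, but other connective tissue lists differed. Collagen genes were 9 higher and 20 lower, with 1 higher and 0 lower without overlap. Their median was -0.11, and -0.34 to 0.20 when single libraries were left out. Tendon genes were 10 higher and 2 lower (median 0.32), and 0 were without overlap. Of 18 measured adipocyte genes 17 had lower means and Fabp4, the fatty acid carrier, was without overlap at 125, 153, 1543 and 256 CPM against 115, 121 and 119 CPM (-1.31 ± 0.75). The list's median of -1.23 was -0.18 without saline replicate 4, which held the highest adipocyte levels. Adipoq, an adipocyte hormone, stood at 8.76, 10.8, 319.8 and 28.8 CPM in saline and at 13.4, 4.33 and 19.4 CPM, with overlap (-1.48 ± 1.12). Fibro-adipogenic progenitors are the stromal cells that form muscle fat and scar, and 18 of their 20 genes were lower (median -0.37, and -0.13 without EV-depleted replicate 3), 2 without overlap. These were Cxcl14, a chemokine, at 64.6, 81.4, 50.7 and 53.6 CPM against 34.0, 32.1 and 42.0 CPM (-0.76 ± 0.19), and Mgp, matrix Gla protein (-0.53 ± 0.19). Neither was highest in saline replicate 4.

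The 12 lower genes of smallest p included immune, cytoskeletal and metabolic genes. Lsp1, an actin binder of leukocytes, stood at 43.1, 61.8, 49.9 and 37.1 CPM in saline and at 15.7, 25.8 and 23.9 CPM after EV-depleted serum (-1.11 ± 0.23). Retnla, a secreted product of alternatively activated macrophages and of fat, stood at 17.9, 23.6, 68.4 and 26.3 CPM against 8.24, 5.79 and 10.9 CPM (-1.75 ± 0.42), with saline replicate 4 far above the rest. Vasp, which extends actin filaments, had the smallest p of the lower genes (0.000496) and stood at 49.8, 51.9, 57.1 and 41.6 CPM against 28.3, 26.2 and 29.6 CPM (-0.81 ± 0.15). Both groups were narrow for Vasp, and saline replicates 4 and 6 were the highest and the lowest saline libraries.

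Ufsp1, a protease that matures the ubiquitin-like protein UFM1, stood at 16.3, 20.3, 18.5 and 16.6 CPM in saline and at 6.66, 10.4 and 8.84 CPM (-0.99 ± 0.19). It lies at chr5:137294629-137295665 on the plus strand, just past Ache at chr5:137287519-137294466 on the same strand. Ache, the acetylcholinesterase of the neuromuscular junction, was lower too, at 38.3, 33.0, 45.3 and 26.6 CPM against 19.5, 21.7 and 24.3 CPM (-0.67 ± 0.20). Neighbours on a strand can share reads, and whether the counting separated them was not tested. Whole young serum gave 12.5 to 14.7 CPM of Ufsp1, between both groups.

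Kazald1, a secreted protein with a Kazal domain, went from 7.55 to 11.5 CPM in saline to 3.98 to 5.10 CPM (-0.94 ± 0.19). Cst3, the protease inhibitor cystatin C, went from 448 to 574 CPM to 325 to 367 CPM (-0.59 ± 0.13), and Cbr2, a carbonyl reductase, from 43.9 to 60.6 CPM to 24.2 to 34.3 CPM (-0.77 ± 0.17). Dhrs7c, a dehydrogenase of the sarcoplasmic reticulum, had 184 to 213 CPM in saline and 123 to 146 CPM after EV-depleted serum (-0.54 ± 0.12). Slc37a4, the glucose 6-phosphate transporter, had 130 to 166 CPM and 87.3 to 103 CPM (-0.58 ± 0.14). Prxl2b, a peroxiredoxin-like enzyme, and Itm2a, a membrane protein, differed by -0.59 ± 0.13 and -0.81 ± 0.19. All 24 genes of the higher and lower sets kept their direction under every alternative run.

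Chaperones and stress-response genes were mixed. Hspb7, a small heat shock protein that binds filamin C, stood at 297, 280, 136 and 461 CPM in saline and at 790, 506 and 689 CPM after EV-depleted serum (1.27 ± 0.37). Cryab, alpha B-crystallin, stood at 421 to 482 CPM in 3 saline libraries, 842 CPM in saline replicate 6 and 684 to 953 CPM after EV-depleted serum (0.59 ± 0.25). Among 25 HSP70 and HSP90 family genes and cochaperones 20 were higher (median 0.10), with Hspa1l (0.70 ± 0.23), Dnaja4 (0.62 ± 0.19) and Dnajb4 (0.42 ± 0.15) without overlap. Of 24 immediate early genes 17 were higher (median 0.17, but 0.48 without saline replicate 4 and 0.04 without saline replicate 3), and Atf3, Jun and Maff were without overlap (0.83 ± 0.23, 0.50 ± 0.16 and 0.45 ± 0.20). Atf3, a stress-induced repressor, stood at 3.48, 4.70, 5.04 and 5.84 CPM against 7.28, 8.64 and 11.98 CPM. Fos stood at 87.3 CPM in EV-depleted replicate 2, but at 5.81 and 7.30 CPM in the other two and at 3.02 to 12.3 CPM in saline.

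At the neuromuscular junction 9 of 15 genes were lower and 3 of these were without overlap, Ache among them, with Etv5, a factor of synaptic nuclei, at -0.40 ± 0.20. Musk, the agrin receptor kinase, had a higher mean and overlapped (0.88 ± 0.36). The actin regulators divided evenly, with 13 higher and 14 lower. Enah, a relative of Vasp, stood at 25.6, 20.2, 19.8 and 20.5 CPM in saline and at 44.3, 30.0 and 38.5 CPM after EV-depleted serum (0.77 ± 0.18), the opposite of Vasp and of Pfn1, profilin (-0.53 ± 0.19). With the length trend removed Enah was at 0.44 and Vasp at -0.73. Gpx1, glutathione peroxidase, was the antioxidant gene with the largest difference, at 87.8, 111, 184 and 217 CPM against 58.9, 66.8 and 52.6 CPM (-1.23 ± 0.30). Of 23 antioxidant genes 15 were lower, 4 without overlap, and Sod2, the mitochondrial superoxide dismutase, was higher without overlap (0.24 ± 0.12).

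Growth factor and ageing genes gave small sets. Fgf7, a growth factor that stromal cells make for epithelia, stood at 1.60, 1.39, 1.99 and 2.59 CPM in saline and at 4.27, 4.15 and 4.50 CPM after EV-depleted serum (0.89 ± 0.20). Fgf1 stood at 17.3, 9.55, 9.78 and 20.5 CPM against 26.4, 20.7 and 30.8 CPM (0.87 ± 0.29), and both were without overlap. Of the 7 tested Klotho and FGF receptor genes 5 were higher and 2 lower. The share higher without overlap was 28.6% of these few genes, against 3.40% over all genes. Kl, the anti-ageing hormone and FGF co-receptor Klotho, was below the filter and was listed at 0.0755 to 0.378 CPM in saline and 0.0487 to 0.259 CPM after EV-depleted serum (exact permutation test, two-sided p = 0.486). Of 29 TGF-beta and myostatin genes 17 were higher and 12 lower. Without overlap were 2 higher (6.90%) and 1 lower (3.45%), against 3.40% and 4.08% over all genes. Among these, Tgfb3 was higher (0.43 ± 0.14) and Tgfb1 lower (-0.73 ± 0.34), with Tgfb1 at 20.7 CPM in saline replicate 4. Mstn, the muscle growth inhibitor myostatin, overlapped (0.50 ± 0.28).

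Cdkn2a, the gene of the senescence marker p16, was also below the filter and stood at 1.63, 1.08, 0.857 and 0.503 CPM in saline and at 0.146, 0.0520 and 0.104 CPM after EV-depleted serum. All EV-depleted libraries were below all saline libraries, at means of 1.02 ± 0.470 and 0.1005 ± 0.0470 CPM (SD). The exact permutation test of the CPM gave a two-sided p of 0.0571, where 0.0286 is the smallest that 4 against 3 libraries allow. Of 12 tested senescence and cell cycle inhibitor genes 10 were lower, 2 of them without overlap (16.7%), against 4.08% over all genes. Cdkn1c and Cdkn2c, cell cycle inhibitors, were lower without overlap (-0.39 ± 0.18 and -0.77 ± 0.36), and Cdkn1a, p21, did not separate the groups (-0.01 ± 0.22). Pax7, the satellite cell factor, was at 0.991 to 1.44 CPM in saline and 1.06 to 2.12 CPM after EV-depleted serum (0.28 ± 0.21). Myog, of differentiating myoblasts, was at 3.64 to 5.16 CPM and 3.79 to 4.33 CPM (-0.10 ± 0.18), and Myh3, the embryonic myosin of new fibres, at 1.17, 1.22, 1.57 and 9.85 CPM and 15.7, 5.26 and 4.195 CPM (1.26 ± 0.63). None of these 3 regeneration genes was without overlap.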

How the data were processed

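RNA was measured by sequencing in tibialis anterior of aged mice, and 7 of 11 libraries were used here. Per the submitters' processing notes the tools were FastQC, STAR and DESeq2 and the build mm10, with no version or role given, and the sources used here do not say how reads were counted per gene or whether strand was used. The deposited CPM values were scaled by the authors to 1000000 per library over the genes in the table, with an offset of 0.0001, as read from the values. In the deposited TPM table the authors divided CPM by each gene's genomic span, introns included, so TPM was only an alternative. Between 75.3% and 78.7% of the low CPM values, those from 0.01 to 1 CPM, were whole reads within 0.1 reads, too few to rebuild counts for a count model. Of 17893 symbols found in GENCODE M21 (mm10), 99.4% had the same start, and ends are the deposited ones minus 1.

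All genes that reached 1 CPM in 3 or more of the 7 libraries entered limma 3.58.1 (R 4.3.3), on log2(CPM + 1) with a pseudocount of 1, which understates the fold of low genes, with eBayes and a variance trend. Tests were two-sided with Benjamini-Hochberg adjustment over all 12956 genes at 0.05, and the fit was tested on simulated data. Genes without overlap were counted beside it. Named were the 12 genes per direction past the threshold or, failing that, of smallest unadjusted p without overlap; up to 4 members of each list with the smallest p and those that go against it; and a fixed set of fibre type, ageing and marker genes. Further list members were named because their groups did not overlap or as counterexamples, after their values were seen. The members and lists were chosen with earlier results of these data known. Lists are described by counts and medians, and list means were not tested. Genes below the filter had an exact permutation test of CPM. Transcript lengths are the longest transcript per gene, and promoter windows are from RefSeq GRCm38.p6. Alternatives covered pseudocount, filter, scaling, unit, variance model, weights, the replicate block and libraries left out; removal of the length trend was added after the data were seen. Figures were drawn with matplotlib 3.10.9 in Python 3.11.15.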

Additional observations from a re-analysis of the deposited data

Results flagged for a closer look

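Of 156 genes looked at, not all of them described above, 23 had a saline library set apart from the other saline libraries. Its distance from its nearest neighbour exceeded Dixon's 95% critical value for 4 samples. For a gene picked without regard to its values, chance gives about 1 in 20. Many of these genes were picked after their values were seen or mark the same cell type, so that rate is no yardstick for the 23. In every case the library set apart was the highest of the 4. The groups of 3 EV-depleted libraries were too small to be looked at in this way.

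Saline replicate 4 was the library in 14 of the 23. The adipocyte genes among them were Adipoq (319.8 CPM), Cfd (2811 CPM), Fabp4 (1543 CPM), Retn (175 CPM) and Cidec (362 CPM). The immune genes were Retnla (68.4 CPM), H2-K1 (501 CPM), Adgre1 (20.8 CPM), Mertk (3.41 CPM) and C3ar1 (4.92 CPM). The others were Eno1 (129 CPM), Cdkn2c (58.5 CPM), Glul (468 CPM) and Tgfb1 (20.7 CPM).

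Saline replicate 6 was the library in 7. It held the highest slow fibre values, with Myh7 at 944 CPM, Tnnt1 at 467 CPM and Tnni1 at 441 CPM, and also the highest Myh3 (9.85 CPM), Hbb-bs (1121 CPM), Cryab (842 CPM) and Rpl22l1 (48.2 CPM). Hbb-bs encodes a red cell globin. Saline replicate 2 was the library in 2, Musk (17.5 CPM) and Enah (25.6 CPM).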

How the results depend on the processing

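With 4 against 3 libraries, 2 of them apart from the rest, small differences were not detectable, and which genes are called depends on single libraries. No gene passed the adjusted threshold except with array weights (3811 genes, with a weight of 56.7 on EV-depleted replicate 2 alone), without saline replicate 6 (5: Ighm, Myh1, Myh7, Tnni1 and Tnnt1), without saline replicates 4 and 6 together (1: Myh7) and with the length trend removed and no saline replicate 6 (5: Myh7, Tnni1, Tnnt1, Tnnc1 and Prkg1). When each library was left out in turn, adjusted calls ran from 0 to 5, unadjusted calls from 162 to 768 higher and 174 to 810 lower, and genes without overlap from 483 to 1554 higher and 589 to 1571 lower. Single libraries moved the unadjusted calls by over 1.5 times: they were 768 higher and 810 lower without saline replicate 2, 203 and 174 with EV-depleted replicate 2 left out and 162 and 198 without EV-depleted replicate 4, with 202 higher calls when saline replicate 3 and 678 when EV-depleted replicate 3 was left out. The unadjusted calls were 851 higher and 731 lower with all 11 libraries in the fit, 153 and 673 with TPM, and 3347 and 2393 with array weights. Lower unadjusted calls were 558 with median-of-ratios scaling, 534 with the length trend removed and 194 without saline replicates 4 and 6. Genes without overlap were 157 higher and 972 lower with TPM, 1491 and 906 without saline replicates 4 and 6, and 883 and 818 with the length trend removed and no saline replicate 6.

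The labels give both groups replicates 2, 3 and 4, but same-numbered libraries deviated together by correlations of -0.065, 0.16 and 0.31, so the numbers were not taken as pairs. With the replicate block the fit gave 585 higher and 528 lower unadjusted calls and none past the adjusted threshold.

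Over the named genes, 46 values were reversed, 143 newly passed the threshold and 3220 did neither. The 143 came from the array weights run, with its weight of 56.7 on EV-depleted replicate 2, apart from the few calls listed above without saline replicate 6. Over the list medians, 36 moved by more than the spread of the list score and 1130 did not. The cause of each reversal was not tested. Without saline replicates 4 and 6, Myh4 (-0.11), Ighg2c (-0.38) and Hk2 (-0.079) were negative and Adipoq (0.11), Hbb-bs (0.12), Myl6b (0.17) and Sln (0.55) positive. With the replicate block the values were -0.040 for Myh4, 0.15 for Myl6b, 0.26 for Sln and -0.074 for Ifih1, the same as without saline replicate 6. With the length trend removed they were -0.039 for Myh4, 0.060 for Myog, 0.083 for Cdkn1a, 0.093 for Myl6b, 0.050 for Sln and -0.13 for Ifih1. With saline replicate 6 left out as well they were -0.12 for Myh4, 0.020 for Myog, 0.0065 for Cdkn1a, 0.018 for Hbb-bs, 0.27 for Myl6b, 0.38 for Sln and -0.14 for Ifih1. Array weights gave 0.10 for Myog, 0.0027 for Myl6b, 0.68 for Sln, -0.68 for Ighg2c and -0.12 for Hk2, and TPM gave -0.017 for Ifih1. With 1 library left out at a time the values took both signs for 7 genes, from -0.23 to 0.15 for Cdkn1a, -0.26 to 0.15 for Myl6b, -0.52 to 0.26 for Sln, -0.084 to 0.18 for Ifih1, -0.28 to 0.34 for Ighg2c, -0.094 to 0.39 for Mertk and -0.040 to 0.25 for Myh4.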
